A study of Mus musculus with 6 samples.

Results

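Transcripts of 10 genes used as markers of tubular injury, 5 of them keratins, were examined in mouse kidney cortex, with I-PpoI expressed in proximal tubular epithelial cells or without it. The genes were Havcr1, Lcn2, Clu, Vcam1, Sox9, Krt7, Krt8, Krt18, Krt19 and Krt20, taken by symbol from a count table of 24421 genes, and all 10 were in it. I-PpoI, a homing endonuclease, introduces double-strand breaks at its recognition sequence in genomic DNA. The group labelled PT-I_Ppo-1 (PT-I-PpoI here, 3 libraries) is described in the series title as expressing the enzyme specifically in these cells, and the group labelled Wild-Type (wild type here, 3 libraries) was its control. The promoter that drives the enzyme, the strain, age and sex of the mice and the time after any induction are not given in the sources used here, and no allele shared by both groups is named. The transgene was not analysed here, so the labels were not checked against it. Nothing in the labels states that the numbered samples are separate mice. The p-values therefore reflect only how these samples vary, which may be technical.

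After injury, surviving cells of the kidney tubule lose transport functions and switch on genes that the healthy adult tubule keeps low. Havcr1 (KIM-1) and Lcn2 (NGAL) are used as clinical markers of this state, Vcam1 and Sox9 mark proximal tubule cells in repair, and Clu encodes the secreted chaperone clusterin. Keratins are the intermediate filament proteins of epithelia and assemble as pairs of a type I chain (Krt18, Krt19, Krt20) with a type II chain (Krt7, Krt8). In the healthy kidney the keratins of simple epithelia are found mainly in the distal nephron, above all in the collecting duct, and injured proximal tubules also produce them.

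Of the 10 genes, 8 had enough reads to be tested, and 0 passed in either direction over all genes (edgeR, quasi-likelihood test, Benjamini-Hochberg adjusted p, threshold 0.05). Among all 13977 genes tested, 0.136% passed as higher and 0% as lower in PT-I-PpoI. At an unadjusted p under 0.05, 3 of the 8 were higher (Krt18, Krt7 and Lcn2) and 0 were lower, where 6.42% and 5.61% of all tested genes were. DESeq2 called 2 of the 8 higher, Krt7 and Krt18, against 0.952% of all genes, and 0 lower, against 0.436%. With the form of the deposited library name (plain or hyphenated) as a term, edgeR called 0 of the 8 in either direction, against 0.351% of all genes higher and 0.107% lower. For Krt7, Krt18 and Lcn2 the groups did not overlap, with PT-I-PpoI above wild type, as for 9.23% of all genes. For 0 of the 8 did PT-I-PpoI lie wholly below wild type, as for 7.74% of all genes. The median log2 fold change of the 8 genes was 0.13, and that of all genes tested was 0.0004. Sox9 and Krt20 had too few reads for the expression filter.

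Each library held 13582540 to 20861021 counted read pairs. The first principal component, with 43.1% of the variance, parted the libraries by the form of their deposited names without overlap, while the groups overlapped along it. Plain names have no hyphen before the final number and belong to PT-I-PpoI replicates 1 and 2 and to wild type replicate 1. Hyphenated names belong to PT-I-PpoI replicate 3 and to replicates 2 and 3 of wild type. The labels do not say what the forms stand for. Differences within each form are therefore given beside the pooled ones, although each form holds a single library of one of the groups and gives no test. Levels are in CPM, the count of a gene scaled to a common library size with TMM factors.

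Promoter sequences of the 3 genes whose PT-I-PpoI libraries all lay above wild type are shown together with that of Krt8, the filament partner of Krt18, which did not share their direction. They run 5′ to 3′ from 250 bases before to 50 after the annotated gene start (RefSeq, GRCm38.p6, the build that mm10 names). Of the 10 genes, 6 had an entry. Krt7, Krt8 and Krt18 lie on chromosome 15. The starts of Krt8 and Krt18 are 23.9 kb apart on opposite strands and point away from each other. Capitals mark matches on either strand to the promoter motifs TATAAA and GGGCGG.
Krt18, chr15:102027966-102028265, plus strand: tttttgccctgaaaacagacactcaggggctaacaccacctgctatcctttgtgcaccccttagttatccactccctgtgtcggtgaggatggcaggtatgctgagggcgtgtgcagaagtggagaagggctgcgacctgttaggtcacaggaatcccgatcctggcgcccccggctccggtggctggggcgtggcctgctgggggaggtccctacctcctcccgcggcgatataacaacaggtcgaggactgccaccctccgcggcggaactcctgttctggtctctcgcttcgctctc
Krt7, chr15:101412153-101412452, plus strand: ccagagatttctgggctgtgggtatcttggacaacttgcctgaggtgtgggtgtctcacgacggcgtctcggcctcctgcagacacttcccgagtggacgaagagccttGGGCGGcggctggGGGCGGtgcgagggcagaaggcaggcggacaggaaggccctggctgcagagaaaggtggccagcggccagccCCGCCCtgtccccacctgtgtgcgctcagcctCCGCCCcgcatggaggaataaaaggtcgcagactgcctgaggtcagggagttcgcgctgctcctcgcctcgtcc
Lcn2, chr2:32387690-32387989, minus strand: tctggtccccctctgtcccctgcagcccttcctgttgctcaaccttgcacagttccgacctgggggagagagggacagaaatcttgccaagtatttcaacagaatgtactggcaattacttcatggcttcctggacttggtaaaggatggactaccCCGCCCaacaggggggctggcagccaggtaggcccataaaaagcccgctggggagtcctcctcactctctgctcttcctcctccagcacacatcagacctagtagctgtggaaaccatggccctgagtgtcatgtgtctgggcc
Krt8, chr15:102004293-102004592, minus strand: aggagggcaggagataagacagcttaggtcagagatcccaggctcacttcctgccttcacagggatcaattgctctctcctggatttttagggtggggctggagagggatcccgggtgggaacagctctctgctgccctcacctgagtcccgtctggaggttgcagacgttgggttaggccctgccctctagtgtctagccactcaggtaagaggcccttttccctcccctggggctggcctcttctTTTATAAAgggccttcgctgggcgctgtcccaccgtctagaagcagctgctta
The Krt7 window held GGGCGG, to which Sp1 family factors bind, at 4 places and the Lcn2 window at 1, and 35.7% of all 32851 promoter windows of this length held it. The Krt8 window held TATAAA at 2 overlapping places, read on opposite strands and beginning at -3 and -1 from the annotated gene start. Of all windows, 13.6% held TATAAA. The Krt18 window held neither. Motifs of 3 stress-responsive factors were searched in the same way. The AP-1 motif TGANTCA (7.81% of all windows), the STAT motif TTCNNNGAA (8.30%) and an NF-kB motif (0.411%) had no match in these windows. Over all windows of the 6 genes, the AP-1 motif matched in 1 of 3 Havcr1 windows, the STAT and NF-kB motifs in none, and TATAAA also in that of Krt20. Matches are letters only.

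Havcr1 encodes a membrane receptor through which injured proximal tubule cells take up dead cells, and it was barely detected in both groups. It had 10, 30 and 16 counts in PT-I-PpoI replicates 1, 2 and 3, against 35, 11 and 18 counts in wild type replicates 1, 2 and 3. The highest library was a wild type one and the lowest a PT-I-PpoI one, and the groups overlapped. Havcr1 averaged 1.11 ± 0.56 CPM in PT-I-PpoI, against 1.14 ± 0.47 CPM in wild type (SD, n = 3 each). Summed over libraries and scaled for depth, the level in PT-I-PpoI was 0.925 of that in wild type, with a 95% exact binomial interval of 0.634 to 1.35 that covers counting error only. The edgeR log2 fold change was -0.08 ± 0.45 (SE; adjusted p = 0.958). It differed in sign between the name forms, at -0.76 within plain and 0.36 within hyphenated names. Havcr1 lies at chr11:46740223-46779578 (mm10, as all positions here).

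Lcn2 (chr2:32384637-32387739) encodes lipocalin 2, a secreted protein that binds iron-carrying siderophores and that both distal tubule cells and neutrophils can release. Its level was 4.02, 3.92 and 2.20 CPM in PT-I-PpoI replicates 1, 2 and 3, against 2.12, 2.04 and 1.54 CPM in wild type replicates 1, 2 and 3. The groups did not overlap, but PT-I-PpoI replicate 3 lay close to the wild type libraries. The fold change of Lcn2 was 0.85 ± 0.28 on the log2 scale (SE), or 1.80-fold (edgeR adjusted p = 0.322). It was 0.87 within plain names and 0.29 within hyphenated names, and 0.65 ± 0.24 once the name form was fitted (edgeR adjusted p = 0.314). Lcn2 passed only without PT-I-PpoI replicate 3 (1.07 ± 0.23, edgeR adjusted p = 0.0453), among 15 alternative fits with adjusted p from 0.0453 to 0.777. That fit called 261 genes higher and 364 lower.

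The summed level of neutrophil markers overlapped between the groups. Of 8 neutrophil genes that were counted, 4 were tested, 0 passed, 1 had a fold change above 0 and 3 had one below. The list summed to 4.04 to 7.41 CPM in PT-I-PpoI, against 3.59 to 8.76 CPM in wild type. The granule genes Ngp and Camp were at 0 counts in all 6 libraries. S100a8 and S100a9, the subunits of calprotectin, averaged 1.04 ± 0.61 and 2.17 ± 0.78 CPM in PT-I-PpoI, against 1.08 ± 0.54 and 1.95 ± 0.85 CPM in wild type (SD, 3 libraries each). The part of neutrophils in the level of Lcn2 was not tested.

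Clu (chr14:65968483-65981545), an extracellular chaperone that injured tubules release, was the most abundant of the 10 genes. It stood at 256, 214 and 287 CPM in PT-I-PpoI replicates 1, 2 and 3, against 280, 288 and 258 CPM in wild type replicates 1, 2 and 3. The groups overlapped, and the lowest library was PT-I-PpoI replicate 2. The log2 fold change was -0.13 ± 0.12 (SE; edgeR adjusted p = 0.669), with -0.26 within plain and 0.07 within hyphenated names. Per length, Clu was at 140 ± 20.5 CPM per kb in PT-I-PpoI, against 152 ± 8.50 CPM per kb in wild type, above Krt7 and Krt8 in both groups.

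Vcam1 (chr3:116110020-116129688) encodes an adhesion molecule of activated endothelium that also appears on proximal tubule cells that fail to repair. It was at 10.3, 9.32 and 4.04 CPM in PT-I-PpoI replicates 1, 2 and 3, against 11.03, 7.72 and 9.11 CPM in wild type replicates 1, 2 and 3. PT-I-PpoI replicate 3 lay below all others, and the other libraries of both groups overlapped. The log2 fold change of -0.23 ± 0.30 (SE; edgeR adjusted p = 0.774) became 0.07 without that library (edgeR adjusted p = 0.831), and was -0.17 within plain and -1.04 within hyphenated names. Of 8 endothelial markers, all had fold changes above 0 (median log2 fold change 0.18), 0 passed, and their summed level was 555 to 591 CPM in PT-I-PpoI, against 470 to 552 CPM in wild type. Their part in the level of Vcam1 was not tested.

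Sox9 (chr11:112782210-112787757), a transcription factor of kidney development that is induced early in tubule repair, had 8, 4 and 8 counts in PT-I-PpoI replicates 1, 2 and 3, against 17, 7 and 6 in wild type replicates 1, 2 and 3. These counts did not pass the filter, and the groups overlapped. Summed over libraries the level in PT-I-PpoI was 0.705 of that in wild type, with a 95% exact binomial interval of 0.379 to 1.28 for counting error only. Fitted without the filter, the log2 fold change was -0.47 ± 0.55 (SE; edgeR adjusted p = 0.751), with -1.17 within plain and 0.41 within hyphenated names.

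Per exon length, the means of the 10 genes spanned a wide range and kept nearly the same order in both groups. In PT-I-PpoI the order was Clu, Krt8, Krt7, Krt18, Lcn2, Vcam1, Krt19, Havcr1, Krt20 and Sox9, and in wild type Vcam1 stood before Lcn2. Lcn2 was at 3.96 ± 1.20 CPM per kb in PT-I-PpoI, against 2.23 ± 0.37 CPM per kb in wild type, and Vcam1 at 2.32 ± 0.99 CPM per kb in PT-I-PpoI, against 2.73 ± 0.49 CPM per kb in wild type (SD, 3 libraries each). Sox9, last in both, was at 0.0974 ± 0.042 CPM per kb in PT-I-PpoI, against 0.132 ± 0.063 CPM per kb in wild type. Neighbours whose ranges of mean ± SD overlapped were Krt8 with Krt7, Lcn2 with Vcam1 and Vcam1 with Krt19 in PT-I-PpoI. In wild type they were Vcam1 with Lcn2 and Krt20 with Sox9.

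**Figure D1:**
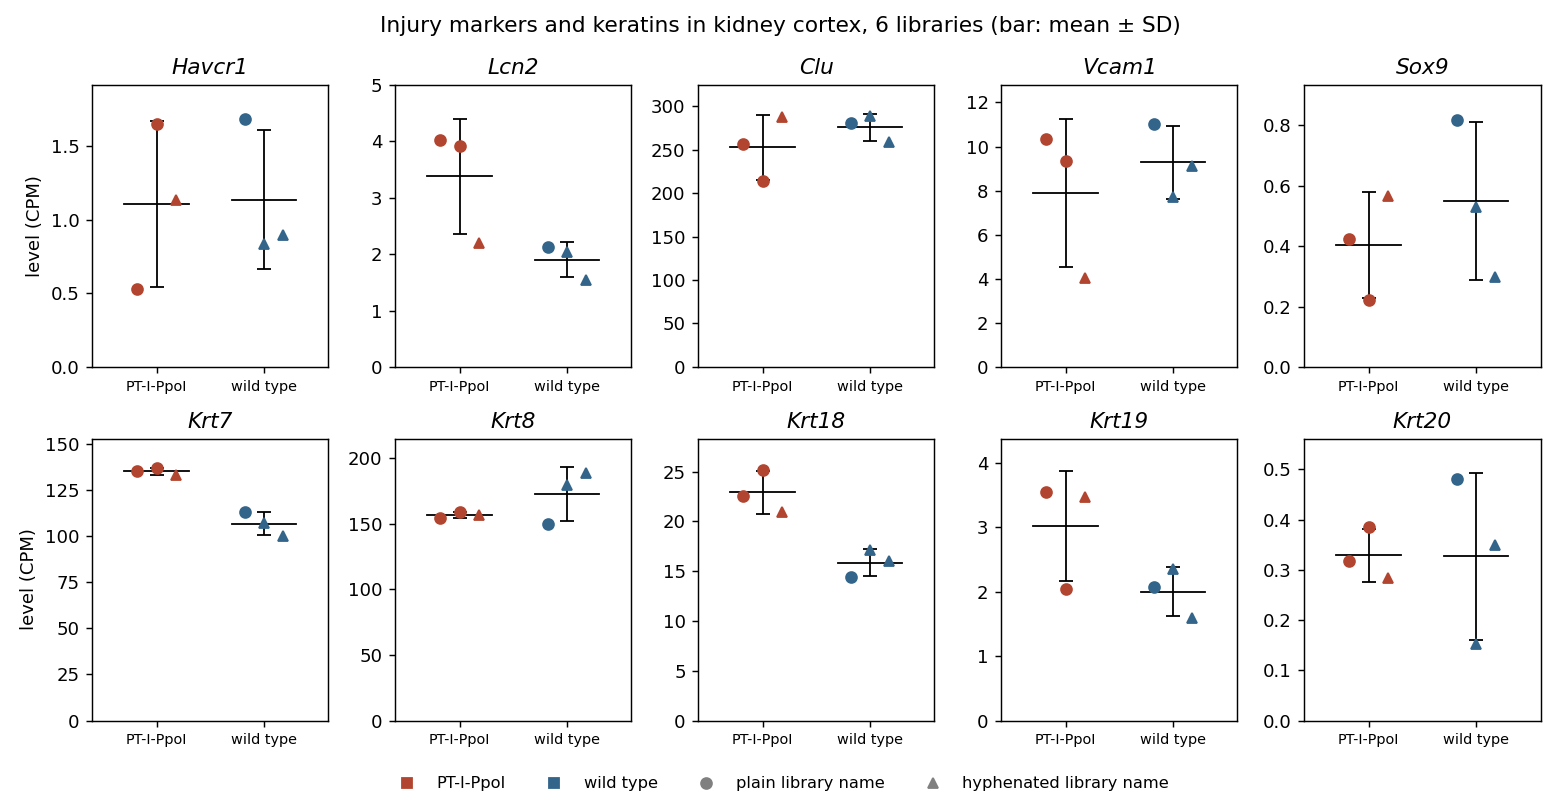
Levels of the 10 genes in CPM (linear axes from 0) in each PT-I-PpoI and wild type library. Circles are libraries with plain names, triangles those with hyphenated names, the horizontal line is the mean and the bar ± SD (n = 3 each). The 3 PT-I-PpoI points lie above all 3 wild type points for Krt7, Krt18 and Lcn2, while the groups overlap for the other 7 genes.

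The keratins split within their own family. In all 3 PT-I-PpoI libraries Krt18 and Krt7 lay above wild type, Krt8 did not, and Krt20, the lowest of the 3 type I members, had 10 reads or fewer in each library. Krt18 (chr15:102028216-102032026), the type I chain of simple epithelia, stood at 22.6, 25.2 and 21.0 CPM in PT-I-PpoI replicates 1, 2 and 3, against 14.4, 17.1 and 16.04 CPM in wild type replicates 1, 2 and 3. The lowest PT-I-PpoI library thus lay above the highest wild type library. Its log2 fold change was 0.54 ± 0.11 (SE), or 1.45-fold (edgeR adjusted p = 0.166), with 0.72 within plain and 0.34 within hyphenated names. DESeq2 called it (adjusted p = 0.0217), as did edgeR without PT-I-PpoI replicate 3 (0.60 ± 0.11, adjusted p = 0.0323). Over 15 alternative fits its adjusted p ran from 0.0217 to 0.657.

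Krt7 (chr15:101412403-101427806) is a type II keratin of collecting duct, urothelial and other ductal epithelia. It was at 135, 137 and 133 CPM in PT-I-PpoI replicates 1, 2 and 3, against 113, 107 and 100.1 CPM in wild type replicates 1, 2 and 3. The PT-I-PpoI libraries differed little among themselves, and all lay above wild type. Krt7 had a log2 fold change of 0.34 ± 0.08 (SE), or 1.27-fold (edgeR adjusted p = 0.189). It was 0.27 within plain and 0.36 within hyphenated names. DESeq2 called it (adjusted p = 0.0293), as did edgeR without PT-I-PpoI replicate 3 (0.35 ± 0.08, adjusted p = 0.0482), and over the 15 alternatives the adjusted p ran from 0.0293 to 0.657.

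Krt8 (chr15:101996711-102004342), the type II chain that pairs with Krt18, was at 155, 159 and 156 CPM in PT-I-PpoI replicates 1, 2 and 3, against 150.0, 180 and 189 CPM in wild type replicates 1, 2 and 3. The PT-I-PpoI libraries lay between the wild type libraries. The log2 fold change was -0.14 ± 0.10 (SE; edgeR adjusted p = 0.567), with 0.06 within plain and -0.24 within hyphenated names. RefSeq (GRCm38.p6) lists a Krt8 pseudogene on chromosome 7 that is not in the count table, and reads that map to both places would not be counted with the settings used.

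Krt19 (chr11:100140811-100145919), a small type I keratin of ducts and of cells in regeneration, was at 3.55, 2.04 and 3.47 CPM in PT-I-PpoI replicates 1, 2 and 3, against 2.07, 2.35 and 1.59 CPM in wild type replicates 1, 2 and 3. PT-I-PpoI replicate 2 lay within the wild type range and the other two above it. Krt19 differed by 0.60 ± 0.28 on the log2 scale (SE; edgeR adjusted p = 0.430), with 0.36 within plain and 0.81 within hyphenated names. Krt20 (chr11:99428403-99438153), a type I keratin of umbrella cells of the urothelium that injured proximal tubules induce, had 6, 7 and 4 counts in PT-I-PpoI replicates 1, 2 and 3, against 10, 2 and 7 in wild type replicates 1, 2 and 3. It did not pass the filter. The ratio of the summed levels was 0.946, with a 95% exact binomial interval of 0.462 to 1.92 for counting error only. Without the filter its log2 fold change was -0.05 ± 0.56 (SE; edgeR adjusted p = 0.993), and it was -0.37 within plain and 0.19 within hyphenated names.

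**Figure D2:**
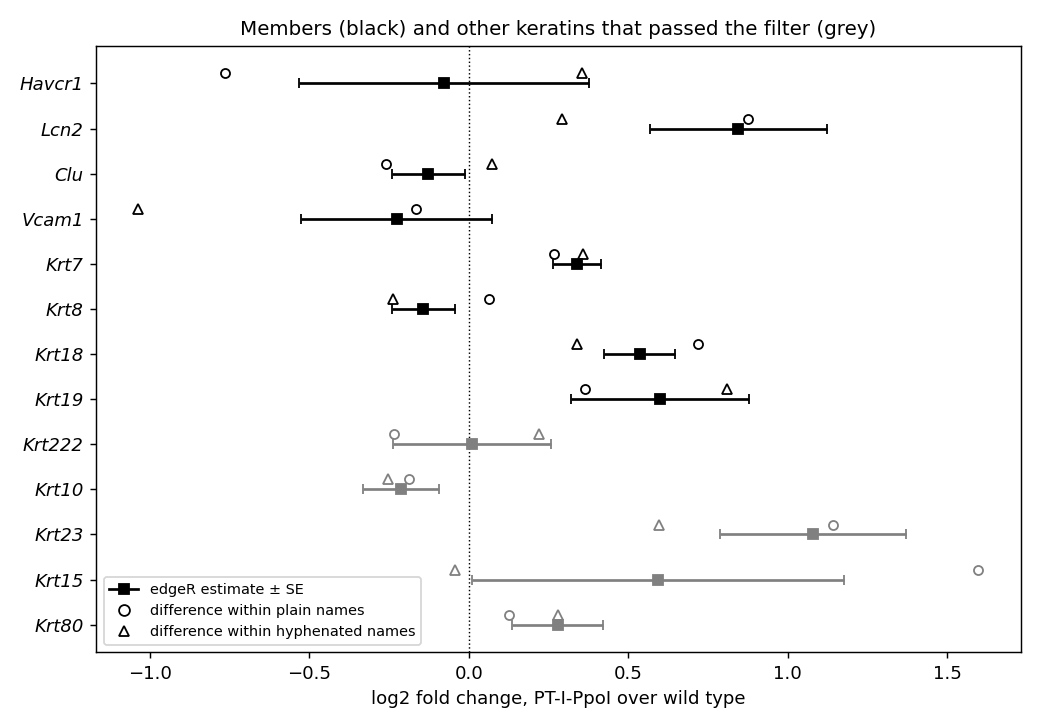
Log2 fold changes of PT-I-PpoI over wild type for the 8 tested members (black) and the 5 other keratins that passed the filter (grey). Squares are edgeR estimates with bars of 1 SE, and open circles and triangles are the differences within plain and within hyphenated library names. Both open symbols lie above 0 for Lcn2, Krt7, Krt18, Krt19, Krt23 and Krt80, and they differ in sign for Havcr1, Clu, Krt8, Krt222 and Krt15.

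Because both chains of a filament are counted in the same library, their ratio needs no scaling between libraries. Krt8 counts were 6.85, 6.30 and 7.46 times those of Krt18 in PT-I-PpoI replicates 1, 2 and 3, against 10.4, 10.5 and 11.8 times in wild type replicates 1, 2 and 3. The groups did not overlap. On the log2 scale the ratio of Krt18 to Krt8 was -2.78 ± 0.12 in PT-I-PpoI and -3.44 ± 0.10 in wild type (SD, n = 3 each), a difference of 0.67 or 1.59-fold. The exact permutation test gave p = 0.1, two-sided, the smallest that 3 against 3 libraries allow (0.15 after Benjamini-Hochberg adjustment over 3 keratin ratios). The difference was 0.66 within plain and 0.58 within hyphenated names, and 0.61 to 0.73 when each library was left out. The pair was chosen with the direction of both genes known.

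Krt7 counts were 0.873, 0.861 and 0.848 of Krt8 counts in PT-I-PpoI replicates 1, 2 and 3, against 0.753, 0.595 and 0.529 in wild type replicates 1, 2 and 3. Wild type replicate 1, the library with a plain name, was the closest to the PT-I-PpoI libraries. Summed per length, type II chains (Krt7 and Krt8) exceeded type I chains (Krt18, Krt19 and Krt20) in every library. They did so 9.05, 8.85 and 9.65 times in PT-I-PpoI replicates 1, 2 and 3, and 12.8, 11.9 and 13.1 times in wild type replicates 1, 2 and 3. The log2 difference of this ratio was -0.46 (exact permutation p = 0.1, two-sided, adjusted 0.15), with -0.51 within plain and -0.37 within hyphenated names. This ratio was added after the data were seen. It shares the counts of Krt8 and Krt18 with the ratio of those genes, so it is no separate test. The log2 ratio of Krt19 to Krt7 was -5.53 ± 0.47 in PT-I-PpoI and -5.75 ± 0.23 in wild type (SD, n = 3 each), and the groups overlapped (exact permutation p = 0.6, two-sided, adjusted 0.6). Within plain and hyphenated names it differed by 0.11 and 0.48.

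Of 52 keratin genes in the table, 21 had at least 1 read. Krt8 made up 42.7 ± 0.56% of the keratin signal per length in PT-I-PpoI, against 51.1 ± 4.14% in wild type, and Krt7 41.8 ± 0.17% in PT-I-PpoI, against 36.0 ± 3.58% in wild type (SD, n = 3 each). The Krt18 share was 8.05 ± 0.61% in PT-I-PpoI, against 6.05 ± 0.27% in wild type. Krt19 followed at 1.08 ± 0.32% in PT-I-PpoI, against 0.78 ± 0.15% in wild type, and Krt20 at 0.084 ± 0.012% in PT-I-PpoI, against 0.092 ± 0.050% in wild type. The order of levels per length, Krt8, Krt7, Krt18, Krt19 and Krt20, held for the means of both groups, but Krt8 and Krt7 were nearly equal in PT-I-PpoI (86.8 ± 1.14 and 85.1 ± 1.30 CPM per kb) and apart in wild type (95.8 ± 11.3 and 67.2 ± 4.04 CPM per kb). The sum over all keratins was 203 ± 3.54 CPM per kb in PT-I-PpoI, against 187 ± 8.14 CPM per kb in wild type.

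**Figure D3:**
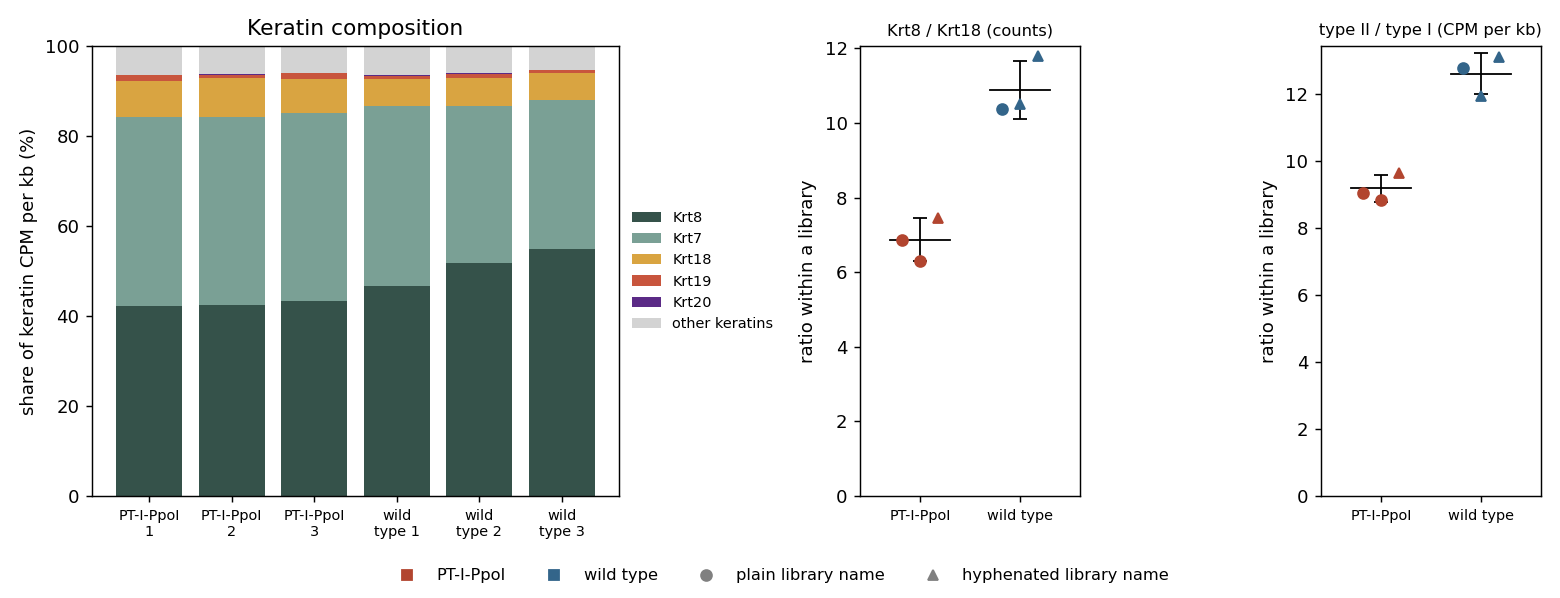
Left, share of each keratin in the summed keratin level per length (percent of CPM per kb) in each library, PT-I-PpoI libraries first. Middle and right, the ratio of Krt8 to Krt18 counts and of type II to type I keratins per length (linear axes from 0), with the mean and ± SD (n = 3 each). Both ratios are lower in all 3 PT-I-PpoI libraries than in all 3 wild type libraries.

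Of 47 other keratins in the table, 31 had no read in any library and 5 were tested. None of the 5 passed by edgeR or DESeq2, and the median log2 fold change was 0.28. At an unadjusted p under 0.05, 1 was higher, where 6.42% of all tested genes were. Krt23, a type I keratin of simple epithelia, was at 2.91, 2.65 and 1.77 CPM in PT-I-PpoI replicates 1, 2 and 3, against 1.20, 1.44 and 0.90 CPM in wild type replicates 1, 2 and 3. All PT-I-PpoI libraries lay above wild type. Its log2 fold change was 1.08 ± 0.29 (SE; edgeR adjusted p = 0.228), 1.14 within plain and 0.60 within hyphenated names, and it passed without PT-I-PpoI replicate 3 (1.26, edgeR adjusted p = 0.0488). Krt80, a type II keratin, differed by 0.28 ± 0.14 on the log2 scale (SE; edgeR adjusted p = 0.456). Krt10, a type I keratin of differentiated epidermis, lay below wild type in every PT-I-PpoI library, at 7.71 ± 0.44 CPM against 8.96 ± 0.48 CPM in wild type (SD, n = 3 each; edgeR adjusted p = 0.492). Krt15 and Krt222 had log2 fold changes of 0.59 ± 0.58 and 0.01 ± 0.25.

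Genes that tie keratin filaments to cell junctions followed no common direction. Of 10 tested, 4 had fold changes above 0 and 6 below (median -0.08), and 0 passed by edgeR or DESeq2. An unadjusted p under 0.05 was reached by 2 higher and 0 lower, where 6.42% and 5.61% of all tested genes were. Ppl, the plakin periplakin, was at 7.10 ± 0.36 CPM in PT-I-PpoI, against 4.29 ± 0.89 CPM in wild type (SD, n = 3 each; log2 fold change 0.72 ± 0.18 SE, edgeR adjusted p = 0.204). Dsp, the desmosomal plakin desmoplakin, was at 22.9 ± 2.61 CPM in PT-I-PpoI, against 18.6 ± 0.85 CPM in wild type (log2 fold change 0.30 ± 0.11 SE, edgeR adjusted p = 0.353).

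Nephron segment markers had fold changes in both directions, although edgeR called none of them lower. Among all 13977 genes tested, 7004 had fold changes above 0 and 6973 below. The share of all genes called higher and lower was 0.136% and 0% by edgeR, and 0.952% and 0.436% by DESeq2. In bulk tissue, fewer cells of a type and less RNA per cell cannot be told apart. Of 11 markers of collecting duct principal cells, 11 had fold changes above 0 (median log2 fold change 0.53), 2 passed by edgeR (Avpr2 and Aqp4) and 5 by DESeq2. Avpr2, the vasopressin receptor of these cells, had an edgeR adjusted p of 0.0385, and of 0.0114 to 0.189 when each library was left out, with its call kept only where PT-I-PpoI replicate 3 was the one missing. Over all genes, edgeR made 0 calls when PT-I-PpoI replicate 1 or 2 was missing, and likewise for wild type replicate 3. The summed level of the principal cell list was 1408 to 1478 CPM in PT-I-PpoI, against 1079 to 1140 CPM in wild type. Aqp2, the vasopressin-regulated water channel, averaged 336 ± 80.1 CPM in PT-I-PpoI, against 195 ± 17.7 CPM in wild type (SD, n = 3 each; log2 fold change 0.79 ± 0.17 SE, edgeR adjusted p = 0.177). Of 3 tested genes of the inner medulla and thin limb, all had fold changes above 0, 2 passed by edgeR and 3 by DESeq2, and the list summed to 318 to 373 CPM in PT-I-PpoI, against 114 to 178 CPM in wild type. All 7 thick ascending limb markers were above 0 (median 0.45, 2 passed by edgeR and 5 by DESeq2), at 6143 to 6335 CPM in PT-I-PpoI, against 4245 to 4752 CPM in wild type. All 14 proximal tubule markers were below 0 (median -0.24), although 0 passed by edgeR and 3 were lower by DESeq2. Their summed level was 18960 to 25602 CPM in PT-I-PpoI, against 24756 to 29654 CPM in wild type, and the groups overlapped.

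Set against the principal cell markers of the same library, 5 members divided. Krt7 had 8.98 to 9.72 counts per 100 principal cell marker counts in PT-I-PpoI, against 9.23 to 9.92 in wild type, and Krt18 1.42 to 1.79 in PT-I-PpoI, against 1.27 to 1.59 in wild type. Both overlapped between the groups on this scale. Krt8, in contrast, had 10.6 to 11.3 counts in PT-I-PpoI, against 13.2 to 17.4 in wild type, and Clu 15.2 to 19.4 in PT-I-PpoI, against 23.8 to 26.7 in wild type, so that all PT-I-PpoI libraries lay below wild type for both. The exact permutation test gave p = 0.1 for each, two-sided and not adjusted, the smallest that 3 against 3 libraries allow. In CPM both genes overlapped between the groups, while the summed principal cell markers lay higher in PT-I-PpoI. As this denominator was already known to be higher, the p is no separate result about Krt8 or Clu. Lcn2 overlapped, at 0.149 to 0.278 in PT-I-PpoI, against 0.142 to 0.189 in wild type. Per 100 proximal tubule marker counts, Krt7, Krt18 and Lcn2 lay above wild type in all 3 PT-I-PpoI libraries, while Krt8 (0.611 to 0.838 in PT-I-PpoI, 0.606 to 0.640 in wild type) and Clu (1.12 to 1.28 in PT-I-PpoI, 0.872 to 1.13 in wild type) overlapped. The unadjusted permutation p was also 0.1 for Krt7, Krt18 and Lcn2 per proximal tubule marker counts, and 0.3 or 0.5 for the remaining ratios. These ratios move with both the gene and the marker list, and the part of the segment markers in the levels of the keratins was not tested.

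**Figure D4:**
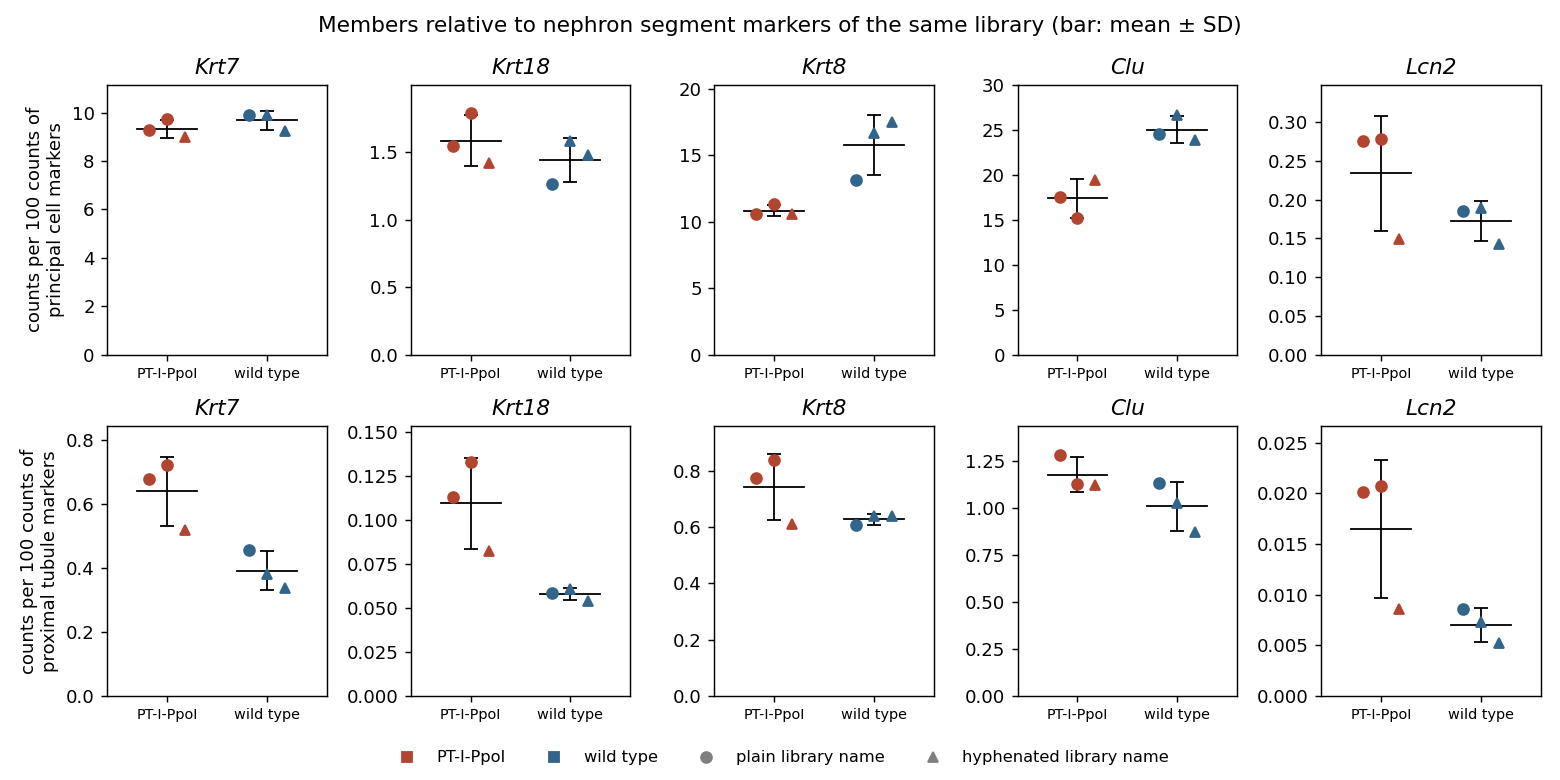
Counts of 5 members per 100 counts of principal cell markers (top) and of proximal tubule markers (bottom) in the same library (linear axes from 0), with the mean and ± SD (n = 3 each). Krt7 and Krt18 overlap between the groups in the top row and not in the bottom row, while Krt8 and Clu overlap in the bottom row and not in the top row.

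Of the other marker lists, the 7 urothelial genes summed to 6.01 to 13.7 CPM in PT-I-PpoI, against 4.48 to 17.6 CPM in wild type, and the 3 mesothelial genes to 1.99 to 7.37 CPM in PT-I-PpoI, against 3.98 to 4.72 CPM in wild type. None of either list passed, and their part in the keratin levels was not tested. Intercalated cell markers, at 421 to 470 CPM in PT-I-PpoI, against 361 to 420 CPM in wild type, had 6 of 6 fold changes above 0 (median 0.18) and 0 passed. In the opposite direction, distal convoluted tubule markers, at 1083 to 1325 CPM in PT-I-PpoI, against 1227 to 1559 CPM in wild type, had 4 of 4 below 0 (median -0.22) and 0 passed. Macrophage markers had 4 of 7 above 0 (median 0.03) with 0 passing, at 135 to 146 CPM in PT-I-PpoI, against 120 to 148 CPM in wild type.

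Among 34 other genes that injured tubules induce, 29 were tested, 20 had fold changes above 0 and 9 below, with a median of 0.21 on the log2 scale. None passed by edgeR. An unadjusted p under 0.05 was reached by 7 higher and 0 lower, where 6.42% and 5.61% of all tested genes were. DESeq2 called 2 higher, against 0.952% of all genes. Anxa2, a calcium-dependent membrane-binding protein, was at 83.0, 90.6 and 69.9 CPM in PT-I-PpoI replicates 1, 2 and 3, against 59.8, 53.1 and 45.6 CPM in wild type replicates 1, 2 and 3. The groups did not overlap (log2 fold change 0.62 ± 0.13 SE, edgeR adjusted p = 0.150, DESeq2 adjusted p = 0.00297), and Anxa2 passed once the name form was fitted (edgeR adjusted p = 0.0452). With each library left out its edgeR adjusted p ran from 0.0218 to 0.657, under the threshold only without PT-I-PpoI replicate 3. S100a11, a small calcium-binding protein, was at 125 ± 7.85 CPM in PT-I-PpoI, against 99.3 ± 2.61 CPM in wild type (SD, n = 3 each; DESeq2 adjusted p = 0.0458, edgeR adjusted p = 0.201). Timp2, a metalloproteinase inhibitor, was at 66.0 ± 6.31 CPM in PT-I-PpoI, against 49.0 ± 7.44 CPM in wild type (SD, n = 3 each; edgeR adjusted p = 0.254).

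Of 11 tested genes of the tubule repair state, 9 were above 0 and 2 below (median 0.17) and 0 passed by edgeR. Cd24a, a surface protein of tubule progenitor-like cells that collecting ducts also express, was at 213, 209 and 195 CPM in PT-I-PpoI replicates 1, 2 and 3, against 143, 150.1 and 137 CPM in wild type replicates 1, 2 and 3. It missed the threshold narrowly (log2 fold change 0.52 ± 0.08 SE, edgeR adjusted p = 0.064) and passed by DESeq2 (adjusted p = 1.2e-05) and once the name form was fitted (edgeR adjusted p = 0.0378). When each library was left out, the edgeR adjusted p of Cd24a ran from 0.0142 to 0.424, passing only without PT-I-PpoI replicate 3. Targets of NF-kB, a transcription factor that can induce both Lcn2 and Vcam1, had 7 of 11 above 0 (median 0.06), with 0 passing. At an unadjusted p under 0.05, 0 were higher or lower, where 6.42% and 5.61% of all tested genes were.

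The members also differed in how they varied across the 6 libraries. Likeness was the root mean square difference between the log2 CPM of a pair of genes, each first centred on its mean. Lower values mean closer levels after centring. Genes that vary little also come out close to each other, whatever their patterns. Among the 10 members the closest pair was Krt7 and Krt18 (0.16), followed by Clu and Krt8 (0.19), which did not rank the libraries in the same order. The largest value was that of Lcn2 and Sox9 (0.80), and Sox9 had only 4 to 17 counts per library. Over 12592 other genes with a mean of at least 1 CPM, the closest to Krt18 were Chrnb1, Clic3 and Tspan6 (0.053, 0.055 and 0.056, where the SD of Krt18 was 0.31). The closest to Lcn2 were Sept1, Capg and Lmo1 (0.11, 0.11 and 0.12, SD of Lcn2 0.53). Of the genes searched, none came as close to Havcr1, for which the smallest values were those of Ccdc167, Pm20d1 and Slc41a3 (0.25 each, SD of Havcr1 0.57). For Krt20 they were Zfp59, Astn2 and March3 (0.078, 0.089 and 0.11, SD 0.39), at a level of few reads per library.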

How the data were processed

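RNA from kidney cortex was sequenced as paired reads for stranded mRNA libraries, per the labels' protocols. The authors deposited raw read pair counts per gene, from HISAT2 alignments, per the labels' protocols, and featureCounts 1.5.2 over a UCSC mm10 annotation, per the file headers. The labels' protocols name mm9, and positions here are those of the deposited table. The counting command set no strand option and no option for reads that map to several places. The authors also deposited rlog values on a log2 scale, used only in an alternative test. Column Length, deposited with the counts, gave levels per kb.

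Counts were tested in R 4.3.3 with edgeR 4.0.16: expression filter with a minimum count of 10, TMM factors, group as the only term, quasi-likelihood test, two-sided, Benjamini-Hochberg adjustment over 13977 genes. Alternatives used DESeq2 1.42.0, limma 3.58.1, other filters and size factors, the replicate number or the name form as a term, and each library left out. Differences within name forms are between means of log2 (CPM + 0.1), a scale that understates changes of low genes. Intervals cover counting error only.

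The members and gene lists were chosen with earlier results of these data known. Named genes are the 10 members, the other keratins that passed the filter, for each list genes among the 3 with the smallest p or the first of a cell type list, and for likeness the 3 closest to Havcr1, Lcn2, Krt18 and Krt20 with a mean of at least 1 CPM, without predicted genes. Ngp and Camp, at 0, fall outside this rule and were named after their values were seen. The type II to type I ratio was added after the data were seen, and the ratios to segment markers were not part of the planned tests.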

Additional observations from a re-analysis of the deposited data

How the results depend on the processing

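No member passed with other size factors or filters, limma-voom, limma on rlog values, the replicate block or the name form as a term. DESeq2 called 2 members higher (Krt7 and Krt18) and 2 other injury genes, and the name form as a term called 1 (Anxa2). Leaving out each library gave 0 to 3 members higher and 0 lower, 0 to 1 other keratins and 0 to 2 other injury genes, with the highest counts without PT-I-PpoI replicate 3. All genes called higher and lower numbered 19 and 0 in the fit reported here, 133 and 61 with DESeq2, 49 and 15 with the name form, 44 and 3 with no filter, 33 and 7 with the replicate block, and 1 and 0 with limma on rlog. They ran from 0 to 261 higher and from 0 to 364 lower when each library was left out, with 0 in either direction when PT-I-PpoI replicate 1 or 2, or replicate 3 of wild type, was missing, and 2 and 9 higher without replicates 1 and 2 of wild type. The cause of these shifts was not tested. Whether the replicate numbers shared by the groups pair the samples was not settled. Deviations of same-numbered libraries from their group means had correlations across genes of 0.22, -0.13 and 0.16. Those of unlike-numbered libraries ran from -0.27 to 0.18, and 3 libraries per group are too few to decide. With the replicate block Krt18 had a log2 fold change of 0.53, Krt7 of 0.34 and Lcn2 of 0.80. The ratio differences of 0.67, 0.23 and -0.46 cannot move when taken by pairs in groups of equal size, so pairing is no check of them. The log2 ratio of type II to type I keratins differed by -0.37 within hyphenated names. Leaving out each library gave 0.61 to 0.73 for Krt18 to Krt8, 0.089 to 0.50 for Krt19 to Krt7 and -0.50 to -0.43 for type II to type I. Among members, signs changed within hyphenated names for Havcr1 (0.36), Clu (0.07), Sox9 (0.41) and Krt20 (0.19), and within plain names for Krt8 (0.06). Fitted signs changed when a library was left out for Havcr1 (-0.52 to 0.34), Vcam1 (-0.46 to 0.072), S100a8 (-0.52 to 0.49), S100a9 (-0.14 to 0.56, and -0.12 with the name form) and Krt222 (-0.095 to 0.15, and -0.041 with the name form). Depth limits Sox9, Krt20 and Havcr1: 3 counts correspond to 0.144 to 0.227 CPM.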
